A study of Mus musculus with 24 samples.

Results

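The response of the mouse lung to N-DEP, a sample of diesel exhaust particles, was measured by comparing lungs of mice given N-DEP alone with lungs of mice given saline. The comparison set 6 of the 24 arrays of the study against each other, 1 array per mouse, while all 24 entered the estimate of the spread. The 6 were chosen by sample title: 3 titled NDEP without OVA and 3 titled Saline without OVA. All mice were BALB/C females of 8 to 10 weeks, from an inbred strain. NDEP mice received 150 ug of N-DEP through the nose on day 0 and again on day 13, and saline mice received saline on the same days. Lungs were collected 18 hours after the second dose, and neither group received ovalbumin (OVA, an egg white protein used as a model allergen). The series title calls the diesel samples chemically distinct, and the make-up of N-DEP is not given in the sources used here. 4 further groups of 3 mice served for comparison: NDEP/OVA mice received 150 ug of N-DEP with 20 ug of OVA, Saline/OVA mice received 20 ug of OVA, and ADEP and CDEP mice received 150 ug of the other diesel samples, A-DEP and C-DEP, without OVA. RNA came from whole frozen lung, so every value below is an average over all cell types of the organ. A lower value can mean fewer cells of a type or less RNA per cell, and these cannot be told apart here.

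Particles that reach the airways are met by epithelial cells and by alveolar macrophages, which take them up and release chemokines, the small proteins that draw neutrophils and monocytes out of the blood. Interleukin 1 and the transcription factor NF-kB drive many of these genes, and lung epithelium itself makes several acute phase proteins best known from the liver. Aromatic hydrocarbons on soot can activate the aryl hydrocarbon receptor, which induces cytochrome P450 genes of family 1, and oxidants can activate NRF2, which induces antioxidant genes.

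The arrays carried the expression pattern of lung in both groups. Sftpc, the surfactant protein of alveolar type 2 cells, measured 13.81, 13.76 and 13.63 log2 in NDEP lungs, against 13.35, 13.87 and 13.64 in saline lungs, and Scgb1a1, the secretoglobin of club cells, measured 13.86, 13.87 and 14.05 log2 in NDEP lungs, against 14.09, 13.92 and 14.04 in saline lungs. Levels are log2 of the deposited intensity, with an array median of 72.2 to 75.5 intensity units, and a difference of 1 on this scale is a 2-fold change. Fold changes, and the amounts by which genes rose or fell, are given below as log2 differences unless written with "-fold". A gene is called dim in a group when its mean lies below the 25th percentile of each of that group's arrays, 4.45 to 4.64 log2 over all arrays, since it is then not shown to lie above background. On the control transcripts, probe sets at the 3′ end minus those at the 5′ end, a sign of RNA degradation, gave log2 differences of 0.267, 0.202 and -0.0613 for Gapdh on the NDEP arrays, against 0.679, 0.125 and 0.283 on the saline arrays. For Actb it was 0.933, 0.700 and 0.736 on the NDEP arrays, against 1.20, 0.808 and 1.02 on the saline arrays. The groups overlapped for both (exact two-sided permutation test, p = 0.4 for Gapdh and p = 0.2 for Actb, n = 3 each), and 3 against 3 arrays cannot give a p below 0.1. Saline replicate 1 had the highest value of the 6 arrays for both control genes.

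NDEP lungs had higher expression of 279 genes and lower expression of 56 genes than saline lungs among 12393 genes tested (limma, Benjamini-Hochberg adjusted p below 0.05). These 335 genes were 2.7% of the genes tested, 2.25% higher and 0.452% lower. At these shares a gene list of the sizes used below can hold 0 called genes, so a count of 0 is not by itself a result about the list. 56 of the higher genes and 3 of the lower genes differed at least 2-fold. The median log2 fold change was 0.63 among the higher genes and -0.50 among the lower genes, against 0.0042 over all genes tested, and the median SE of the called genes was 0.134. The NDEP and saline arrays did not overlap for 279 of the 279 higher genes and for 53 of the 56 lower genes, while 17.4% of all genes did not overlap. The number of calls depended on single arrays: 129 genes were higher and 23 lower without saline replicate 1, 139 higher and 26 lower without NDEP replicate 3, and 316 higher and 91 lower without saline replicate 2. Saline replicate 1 was the lowest saline array for 170 of the 279 higher genes and the highest saline array for 40 of the 56 lower genes, and its part in the counts beyond these fits was not tested. With any 1 of the 6 arrays left out, 94 of the higher genes and 7 of the lower genes kept their call. When the spread was estimated from the 6 arrays alone, 169 genes were higher and 12 lower. With the 3′ and 5′ differences of Gapdh and Actb as covariates, 114 genes were higher and 12 lower, and after the arrays were quantile normalized again, 232 were higher and 86 lower.

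**Figure D1:**
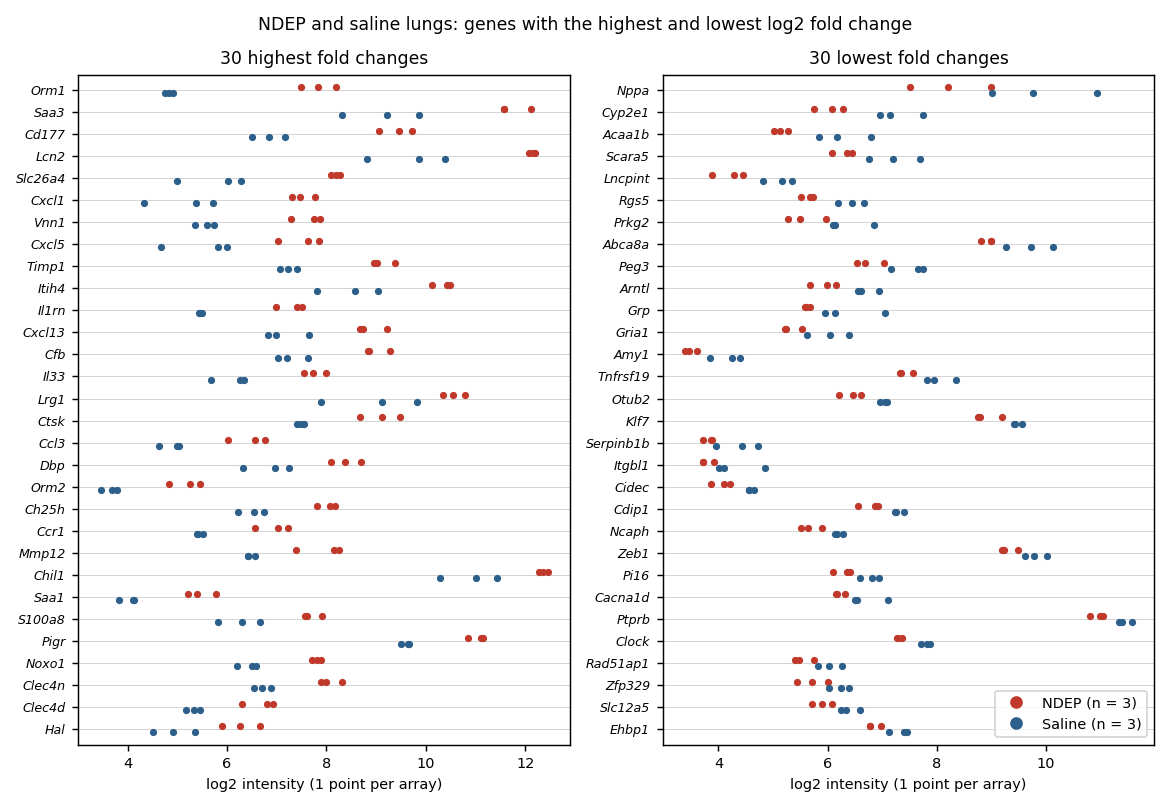
Log2 intensity (x axis) of the genes with the 30 highest and the 30 lowest log2 fold changes among genes that passed the adjusted p of 0.05 and whose arrays did not overlap, with 1 point per array (NDEP red, saline blue, n = 3 each) and genes ordered by fold change. All NDEP points of a gene lie on 1 side of its saline points, and Orm1, at the top, has NDEP points between 7.48 and 8.19 and saline points between 4.76 and 4.92.

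Acute phase and innate defence proteins had the highest median of the 52 function lists. The lists were chosen with earlier results of these data known, so list ranks and counts describe the data and are not tests. Of 23 measured members, 12 rose and none fell, with a median log2 fold change of 0.83. Orm1, the plasma carrier protein orosomucoid, measured 7.48, 7.84 and 8.19 log2 in NDEP lungs, against 4.83, 4.76 and 4.92 in saline lungs. Its NDEP arrays lay more than 2 log2 units above every saline array, a 7.99-fold difference with a log2 fold change of 3.00 ± 0.38 (adjusted p = 6.41e-05). Saa3, the serum amyloid A gene made outside the liver in mice, measured 11.56, 11.56 and 12.11 log2 in NDEP lungs, against 8.31, 9.86 and 9.21 in saline lungs. Lcn2, a siderophore-binding protein of neutrophils and epithelium, measured 12.07, 12.19 and 12.16 log2 in NDEP lungs, against 8.81, 10.39 and 9.86 in saline lungs. In both genes the NDEP arrays were close to each other and the saline arrays were spread, and the fold changes were 2.61 ± 0.49 (adjusted p = 0.0033) for Saa3 and 2.45 ± 0.36 (adjusted p = 2.56e-04) for Lcn2. Itih4, a plasma protein of the inter-alpha-inhibitor family, measured 10.49, 10.43 and 10.12 log2 in NDEP lungs, against 7.81, 9.03 and 8.58 in saline lungs, with a fold change of 1.87 ± 0.23 (adjusted p = 4.21e-05). Orm2 and Saa1 were dim in saline lungs, so their differences are lower bounds against the 25th percentile of the saline arrays: Orm2 was at least 1.51-fold higher (mean levels of 5.18 log2 in NDEP lungs and 3.64 in saline lungs, adjusted p = 2.51e-04) and Saa1 at least 1.83-fold (5.46 and 4.02 log2, adjusted p = 0.0016). With both at these bounds the median of the list is 0.77. Chil1, a chitinase-like protein, rose by 1.45 ± 0.21, and Hpx, the haem carrier of plasma, by 1.27 ± 0.26. The list also held Pigr, which carries immunoglobulin A across epithelium (1.43), the protease inhibitor Serpina3n (1.14), the transferrin receptor Tfrc (0.83) and the lipopolysaccharide-binding protein Lbp (0.65). Cp, the copper carrier ceruloplasmin, gave 0.77 ± 0.21 (adjusted p = 0.0512), and the metallothionein Mt2 gave 0.89 ± 0.31 (adjusted p = 0.137). With 1 array left out, 9 (without NDEP replicate 3) to 14 (without NDEP replicate 1) members of this list were higher. Lrg1, a leucine-rich glycoprotein of plasma and neutrophils that was in no list but among the 30 highest fold changes, rose by 1.61 ± 0.31 (adjusted p = 0.0041).

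Chemokines that attract neutrophils or monocytes rose. Of 7 measured neutrophil-attracting CXC chemokines and their receptor, 3 rose and none fell, with a median of 0.55. Cxcl1 measured 7.47, 7.31 and 7.77 log2 in NDEP lungs, against 4.33, 5.37 and 5.72 in saline lungs. Saline replicate 1 was the lowest array for this ligand of the neutrophil receptor Cxcr2, and the fold change was 2.38 ± 0.34 (adjusted p = 1.77e-04). Cxcl5, an epithelial ligand of the same receptor, measured 7.63, 7.03 and 7.85 log2 in NDEP lungs, against 4.67, 6.0 and 5.83 in saline lungs, with a fold change of 2.01 ± 0.33 (adjusted p = 8.02e-04). Cxcl2 rose by 1.06 ± 0.27 (adjusted p = 0.0271), and this call was lost without NDEP replicate 2 (adjusted p = 0.0732), NDEP replicate 3 (adjusted p = 0.144), saline replicate 1 (adjusted p = 0.153) or saline replicate 2 (adjusted p = 0.062). Cxcr2 itself gave 0.35 ± 0.12 (adjusted p = 0.141), and the lung-restricted Cxcl15 gave 0.33 ± 0.12 (adjusted p = 0.148).

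Of 17 measured CC chemokines, 9 rose and none fell, with a median of 0.74. Ccl3, a ligand of Ccr1, measured 6.01, 6.56 and 6.76 log2 in NDEP lungs, against 4.62, 4.99 and 5.04 in saline lungs. Its receptor Ccr1 measured 6.56, 7.02 and 7.23 log2 in NDEP lungs, against 5.40, 5.51 and 5.41 in saline lungs, so that ligand and receptor both lay higher on every NDEP array, by 1.56 ± 0.23 (adjusted p = 3.20e-04) and 1.50 ± 0.23 (adjusted p = 3.38e-04). Ccl9, Ccl8, Ccl6, Ccl2 and Ccl12, which act on monocytes and other leukocytes, rose by 1.19, 1.10, 1.05, 0.97 and 0.89. Ccl17 and Ccl22, the ligands of the T cell receptor Ccr4, rose by 1.14 ± 0.18 and 0.74 ± 0.13, and Ccl20, the ligand of Ccr6, by 0.78 ± 0.14. Ccl5 gave 0.22 ± 0.26 (adjusted p = 0.762). Without saline replicate 1, 5 of the 17 CC chemokines were higher. With the 3′ and 5′ differences as covariates, 4 were. Cxcl13, which attracts B cells, measured 8.67, 8.73 and 9.22 log2 in NDEP lungs, against 6.83, 6.98 and 7.65 in saline lungs, a fold change of 1.72 ± 0.33 (adjusted p = 0.0042). It was the only member of 8 other CXC chemokines and Cx3cl1 that passed the threshold. The interferon-induced Cxcl10 gave 0.52 ± 0.29 (adjusted p = 0.397) and Cxcl9 gave 0.27 ± 0.33 (adjusted p = 0.774). Among 21 chemokine and chemoattractant receptors, Ccr2 (0.84), C3ar1 (0.76) and Ccr7 (0.60) also rose. Ackr4, a decoy receptor for chemokines, fell by 0.39. C3ar1 kept its call with each of the 6 arrays left out. Ccr2 missed the threshold without NDEP replicate 2, NDEP replicate 3, saline replicate 1 or saline replicate 3. Ccr7 missed it without NDEP replicate 1, NDEP replicate 2 or saline replicate 1. Ackr4 missed it without NDEP replicate 1, NDEP replicate 2, NDEP replicate 3 or saline replicate 1.

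Sequence around the start of 8 of these genes is shown because their transcripts differed most: the 6 highest and the 2 lowest fold changes with an entry in the promoter table used. Each window holds 250 bases before and 50 after the gene's start, is written 5′ to 3′ on the gene's strand and comes from RefSeq, build GRCm38.p6. Capitals mark matches on either strand to the NF-kB consensus in its degenerate form, to TTGCNNAA (a C/EBP-type motif) or to TATAAA (an element of core promoters).
Saa3: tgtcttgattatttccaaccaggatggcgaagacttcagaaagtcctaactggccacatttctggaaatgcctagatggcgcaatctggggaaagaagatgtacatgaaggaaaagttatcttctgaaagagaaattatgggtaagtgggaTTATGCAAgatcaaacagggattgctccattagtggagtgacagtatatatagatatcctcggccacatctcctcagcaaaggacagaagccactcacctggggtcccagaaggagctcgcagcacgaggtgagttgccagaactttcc
Cd177: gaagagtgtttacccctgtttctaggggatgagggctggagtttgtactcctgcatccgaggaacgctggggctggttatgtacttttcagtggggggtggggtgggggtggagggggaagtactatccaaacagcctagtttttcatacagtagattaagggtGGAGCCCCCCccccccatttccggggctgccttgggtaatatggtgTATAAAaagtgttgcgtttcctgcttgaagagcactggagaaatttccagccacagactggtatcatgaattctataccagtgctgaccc
Lcn2: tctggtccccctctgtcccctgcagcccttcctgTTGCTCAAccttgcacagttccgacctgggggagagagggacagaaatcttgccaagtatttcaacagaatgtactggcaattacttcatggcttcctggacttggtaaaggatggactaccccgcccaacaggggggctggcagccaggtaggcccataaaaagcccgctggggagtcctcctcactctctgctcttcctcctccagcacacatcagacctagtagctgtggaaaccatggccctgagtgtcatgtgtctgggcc
Slc26a4: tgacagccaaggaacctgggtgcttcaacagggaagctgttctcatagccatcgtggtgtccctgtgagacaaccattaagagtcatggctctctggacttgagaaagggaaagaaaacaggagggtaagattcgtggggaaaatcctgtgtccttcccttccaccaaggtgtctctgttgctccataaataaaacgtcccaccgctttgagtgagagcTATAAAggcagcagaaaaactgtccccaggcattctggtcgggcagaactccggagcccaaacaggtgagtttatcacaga
Cxcl1: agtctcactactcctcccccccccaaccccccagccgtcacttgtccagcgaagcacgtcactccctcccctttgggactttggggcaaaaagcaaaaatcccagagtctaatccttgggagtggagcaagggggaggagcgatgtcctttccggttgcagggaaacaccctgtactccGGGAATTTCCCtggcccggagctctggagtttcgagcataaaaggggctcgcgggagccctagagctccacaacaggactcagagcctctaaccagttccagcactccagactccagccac
Timp1: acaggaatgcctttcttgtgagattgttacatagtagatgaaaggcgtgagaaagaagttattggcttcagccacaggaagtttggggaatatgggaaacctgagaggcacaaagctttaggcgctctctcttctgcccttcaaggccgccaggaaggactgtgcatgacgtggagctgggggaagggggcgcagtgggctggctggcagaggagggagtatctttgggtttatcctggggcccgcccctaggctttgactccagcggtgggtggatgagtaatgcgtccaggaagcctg
Nppa: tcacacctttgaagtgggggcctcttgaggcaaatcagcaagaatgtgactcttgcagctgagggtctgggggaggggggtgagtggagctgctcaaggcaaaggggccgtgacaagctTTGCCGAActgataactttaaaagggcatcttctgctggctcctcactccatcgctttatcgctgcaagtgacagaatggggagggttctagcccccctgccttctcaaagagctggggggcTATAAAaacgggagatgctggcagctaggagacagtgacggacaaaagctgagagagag
Cyp2e1: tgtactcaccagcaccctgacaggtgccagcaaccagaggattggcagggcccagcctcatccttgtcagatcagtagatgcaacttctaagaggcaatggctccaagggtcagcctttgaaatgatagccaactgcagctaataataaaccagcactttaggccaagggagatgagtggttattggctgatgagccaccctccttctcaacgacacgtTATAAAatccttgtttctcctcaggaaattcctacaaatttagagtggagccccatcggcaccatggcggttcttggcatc
The windows lie on the minus strand at chr7:46715627-46715926 (Saa3), chr7:24760262-24760561 (Cd177), chr2:32387690-32387989 (Lcn2) and chr12:31559935-31560234 (Slc26a4). Those on the plus strand lie at chr5:90890995-90891294 (Cxcl1), chrX:20869916-20870215 (Timp1), chr4:148000472-148000771 (Nppa) and chr7:140763569-140763868 (Cyp2e1). The Cxcl1 window held 2 matches to the NF-kB consensus, which overlap at positions -71 and -70 from the start, and Cd177 held one at -86. Saa3 and Lcn2 each held a C/EBP-type match, at -99 and -216, and Nppa held one at -131. TATAAA stood in the windows of Cd177 (-40), Slc26a4 (-31), Nppa (-9) and Cyp2e1 (-31), and the Timp1 window held none of the motifs. Over all called genes with a window, the NF-kB consensus was found in 34 of 219 higher genes (15.53%) and 4 of 50 lower genes (8%), against 9.82% of 9882 measured genes and 8.46% of 32851 windows of the table. The C/EBP-type motif was found in 36 of the 219 higher genes (16.44%) and in 6% of the lower genes, against 9.19% of measured genes and 10.8% of the table. TATAAA was found in 17.35% of the higher genes and 18% of the lower genes, against 10.11% of measured genes and 13.62% of the table. Among the 30 highest fold changes, 25 had a window. Of these, 5 (20%) held the NF-kB consensus, 9 (36%) the C/EBP-type motif and 10 (40%) TATAAA. These are matches of letters, not measured binding.

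Interleukin 1 family genes and colony-stimulating factors that support myeloid cells rose in part. Of 16 measured interleukin 1 family genes, 4 rose and none fell. Il1rn, the receptor antagonist, measured 6.98, 7.40 and 7.52 log2 in NDEP lungs, against 5.43, 5.49 and 5.45 in saline lungs. The saline arrays lay close together and the NDEP arrays more than 1 log2 unit above them, a fold change of 1.84 ± 0.26 (adjusted p = 1.77e-04). Il33, an epithelial alarmin, measured 7.72, 7.99 and 7.56 log2 in NDEP lungs, against 5.68, 6.35 and 6.26 in saline lungs, with a fold change of 1.66 ± 0.22 (adjusted p = 1.12e-04). Il1b, the inflammatory cytokine itself, measured 8.26, 7.82 and 8.63 log2 in NDEP lungs, against 6.76, 7.26 and 7.29 in saline lungs. It rose by 1.14 ± 0.25 (adjusted p = 0.0116) but missed the threshold without NDEP replicate 3 (adjusted p = 0.0887) or saline replicate 1 (adjusted p = 0.0868). The decoy receptor Il1r2 rose by 1.09 ± 0.24 (adjusted p = 0.0133) and missed it without NDEP replicate 2 (adjusted p = 0.0732), NDEP replicate 3 (adjusted p = 0.0764) or saline replicate 1 (adjusted p = 0.104). Il18, a related cytokine, gave -0.31 ± 0.13 (adjusted p = 0.24). Of 10 colony-stimulating factors and receptors, 3 rose, and none fell. Csf2, which encodes the growth factor GM-CSF, measured 6.75, 6.66 and 6.98 log2 in NDEP lungs, against 5.18, 5.71 and 5.67 in saline lungs, a fold change of 1.27 ± 0.13 (adjusted p = 7.42e-06). Csf3r, the receptor for the neutrophil factor G-CSF, rose by 1.05 ± 0.23, and Csf2rb, a receptor subunit for GM-CSF, by 0.81 ± 0.20. Without saline replicate 1, Csf2 alone passed the threshold, and without saline replicate 2, 5 of the 10 genes did. Csf1r, the receptor that macrophages depend on, gave 0.17 ± 0.12 (adjusted p = 0.535).

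Il6 and Tnf did not pass the threshold. Il6 was dim in both groups, with a difference of 0.07 ± 0.19 (adjusted p = 0.913), and Tnf gave 0.24 ± 0.10 (adjusted p = 0.232). Of 17 measured interleukin 6 family and JAK-STAT feedback genes, only Stat3 rose, by 0.48 ± 0.11 (adjusted p = 0.014), and it missed the threshold without NDEP replicate 2 (adjusted p = 0.0744), NDEP replicate 3 (adjusted p = 0.069) or saline replicate 1 (adjusted p = 0.118). Of 21 listed genes of the tumour necrosis factor superfamily, the receptor Tnfrsf1b rose, by 0.47 ± 0.10 (adjusted p = 0.0105), a call lost without NDEP replicate 2 (adjusted p = 0.0541). 3 receptors of the superfamily that the list does not hold, named after their values were seen, also passed the threshold: Tnfrsf13b (0.54 ± 0.14 (adjusted p = 0.0351)) and Tnfrsf18 (0.47 ± 0.11 (adjusted p = 0.019)) were higher and Tnfrsf19 (-0.63 ± 0.14 (adjusted p = 0.0147)) lower, and all 3 missed it without NDEP replicate 3 or saline replicate 1. Of 17 NF-kB subunits and feedback regulators, 5 rose and none fell, with a median of 0.25. Nfkbiz, an atypical inhibitor-family protein that acts as a coactivator, measured 7.82, 7.88 and 7.86 log2 in NDEP lungs, against 7.01, 6.92 and 7.22 in saline lungs. Its fold change was 0.81 ± 0.12 (adjusted p = 2.87e-04), and it kept its call with each of the 6 arrays left out. Birc3 (0.72), Nfkb2 (0.60), Nfkbie (0.58) and Relb (0.53) also rose. Of these 5 genes, Nfkbiz was the only one past the threshold without saline replicate 1, and likewise without NDEP replicate 3. Tnfaip3, the feedback enzyme A20, gave 0.46 ± 0.13 (adjusted p = 0.0701).

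Complement genes and pattern recognition receptors rose in part. Of 17 measured complement genes, 7 rose and none fell, with a median of 0.47. Cfb, a factor of the alternative pathway, measured 8.85, 8.83 and 9.28 log2 in NDEP lungs, against 7.02, 7.63 and 7.21 in saline lungs, a fold change of 1.70 ± 0.25 (adjusted p = 2.82e-04). The 3 chains of C1q, the recognition molecule of the classical pathway that macrophages make, moved together: C1qb measured 8.53, 8.44 and 8.51 log2 in NDEP lungs, against 7.44, 7.38 and 7.26 in saline lungs. The fold changes were 1.13 ± 0.16 (adjusted p = 1.77e-04) for C1qb, 1.09 ± 0.16 (adjusted p = 2.51e-04) for C1qc and 0.98 ± 0.14 (adjusted p = 2.51e-04) for C1qa. The C1 proteases C1ra and C1s1 rose by 0.67 and 0.47. With 1 array left out, 6 to 8 complement genes were higher. Of 20 toll-like and C-type lectin receptors, 6 rose and none fell, with a median of 0.28. Clec4n, the fungal receptor dectin-2, measured 8.32, 7.89 and 8.00 log2 in NDEP lungs, against 6.70, 6.89 and 6.55 in saline lungs. Clec4d, a related receptor, measured 6.29, 6.81 and 6.93 log2 in NDEP lungs, against 5.18, 5.46 and 5.34 in saline lungs. Both lay higher on all NDEP arrays, by 1.36 ± 0.25 (adjusted p = 0.0025) and 1.35 ± 0.17 (adjusted p = 6.41e-05). Cd14, the coreceptor for lipopolysaccharide, rose by 1.31 ± 0.23, Clec7a by 0.81, Tlr2 by 0.69 and Clec5a, which was dim in saline lungs, was at least 1.43-fold higher (adjusted p = 0.0313). Between 4 and 6 of these receptors were higher with 1 array left out, and 3 were with the 3′ and 5′ differences as covariates. Tlr4 gave 0.28 ± 0.15 (adjusted p = 0.377).

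Genes for oxidant production and antibody binding rose in part. Of 7 NADPH oxidase genes, 4 rose and none fell, with a median of 0.73. Noxo1, an organizer of the epithelial oxidase, measured 7.70, 7.81 and 7.89 log2 in NDEP lungs, against 6.21, 6.50 and 6.58 in saline lungs, a fold change of 1.37 ± 0.17 (adjusted p = 5.11e-05). Ncf4, a subunit of the phagocyte oxidase, measured 7.57, 7.55 and 7.57 log2 in NDEP lungs, against 6.49, 6.66 and 6.53 in saline lungs, a fold change of 1.00 ± 0.13 (adjusted p = 1.13e-04). Cyba and Rac2 rose by 0.74 and 0.73, and both missed the threshold without saline replicate 1 and without NDEP replicate 3. The catalytic subunit Cybb gave 0.30 ± 0.26 (adjusted p = 0.649). Of 16 Fc receptors and related myeloid receptors, 5 rose: Cd177, a neutrophil surface protein, by 2.57 ± 0.41 (adjusted p = 6.60e-04), Cd300lf by 1.03, the low-affinity IgE receptor Fcer2a by 0.88, Fcgr3 by 0.82 and the shared signalling chain Fcer1g by 0.72. Of 19 S100 proteins and annexins, 4 rose. S100a8, which with S100a9 forms the neutrophil protein calprotectin, measured 7.92, 7.56 and 7.60 log2 in NDEP lungs, against 5.81, 6.66 and 6.31 in saline lungs. Saline replicate 1 was the lowest array, and the fold change was 1.43 ± 0.28 (adjusted p = 0.0044). S100a9 rose by 1.31 ± 0.26 (adjusted p = 0.0051) and missed the threshold without saline replicate 1 (adjusted p = 0.0542). Without saline replicate 1, S100a8 was the 1 of the 19 genes past the threshold, and without saline replicate 2, 6 were.

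**Figure D2:**
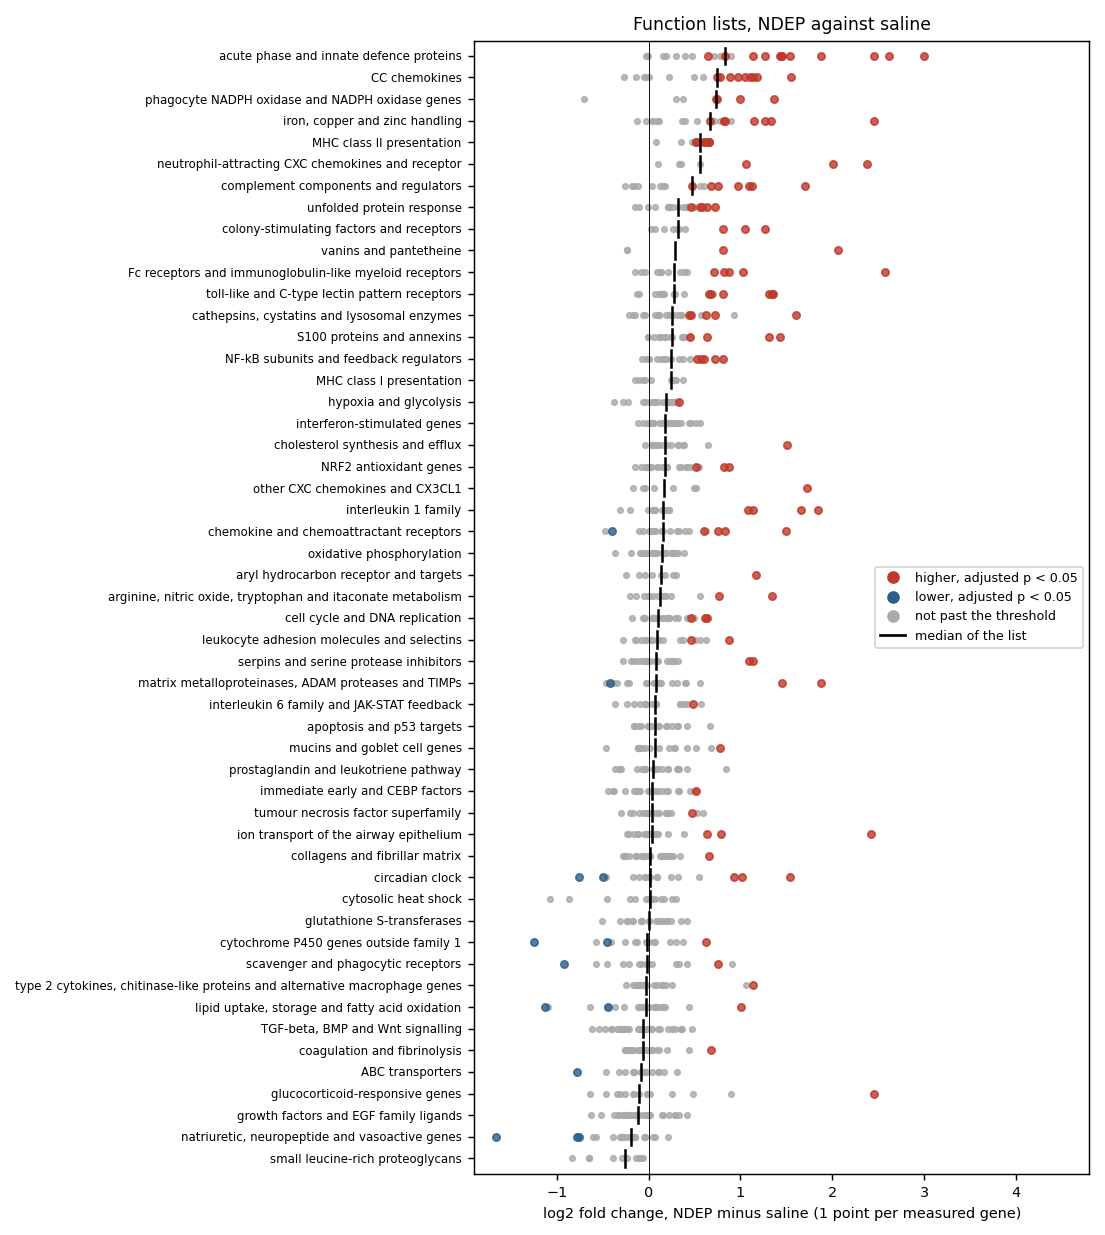
Log2 fold change of NDEP against saline (x axis) for each measured gene of the function lists, 1 point per gene and 1 row per list, with genes past the adjusted p of 0.05 in red (higher) or blue (lower), other genes in grey and the list median as a black bar, and rows ordered by median. The acute phase row has the highest median, 0.83, and the small leucine-rich proteoglycan row the lowest, -0.26.

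Markers of neutrophils and of monocytes rose in part. Of 16 neutrophil markers, 7 rose and none fell, with a median of 0.38. The summed intensity of the list was 2745 to 3530 in NDEP lungs and 1531 to 1958 in saline lungs. Cd177 measured 9.71, 9.06 and 9.45 log2 in NDEP lungs, against 6.84, 6.50 and 7.16 in saline lungs. Cxcr2 (0.35) and Mmp8 (0.41) did not pass the threshold, and the granule gene Camp gave -0.28 ± 0.17 (adjusted p = 0.439). Without saline replicate 1, 3 neutrophil markers were higher, and without NDEP replicate 3, 4 were. Of 17 markers of monocytes and recruited macrophages, 7 rose and none fell, with a median of 0.39, and the summed intensity was 15843 to 16972 in NDEP lungs and 12446 to 14304 in saline lungs. Ms4a7 measured 6.56, 6.44 and 6.50 log2 in NDEP lungs, against 5.52, 5.32 and 5.53 in saline lungs, a fold change of 1.04 ± 0.18 (adjusted p = 0.0016), while Lyz2 gave 0.26 ± 0.12 (adjusted p = 0.288) and Csf1r 0.17 ± 0.12 (adjusted p = 0.535). How far the myeloid receptors and chemokines above follow the number of such cells was not tested.

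Few alveolar macrophage markers passed the threshold, and the 1 that fell, Cidec, is also counted among the fat cell genes below. Of 13 alveolar macrophage markers, 2 rose and 1 fell. Ctsk, a cathepsin that degrades collagen, measured 9.49, 9.12 and 8.67 log2 in NDEP lungs, against 7.56, 7.50 and 7.40 in saline lungs. It was the alveolar macrophage marker with the highest fold change, 1.61 ± 0.23 (adjusted p = 1.77e-04). Fabp5, a fatty acid carrier, rose by 1.00 ± 0.16 (adjusted p = 6.60e-04), and Cidec, a lipid droplet protein that was dim in NDEP lungs, was at least 1.02-fold lower there (adjusted p = 0.0218), a call lost without NDEP replicate 1 (adjusted p = 0.107), NDEP replicate 3 (adjusted p = 0.062), saline replicate 1 (adjusted p = 0.0653) or saline replicate 3 (adjusted p = 0.0756). Siglecf, the surface marker shared with eosinophils, was dim in both groups. Of 15 dendritic cell markers, H2-DMb2 (0.76), Ccl22 (0.74) and Ccr7 (0.60) rose. The defining eosinophil markers Epx, Prg2 and Ccr3 were dim in both groups, and none of 7 measured eosinophil markers passed the threshold. None of 13 mast cell and basophil markers and none of 12 markers of NK and cytotoxic cells passed it either, beside 2.7% of all genes tested. Of the 7 eosinophil markers 6 were dim in both groups, and of the 13 mast cell and basophil markers 5 were. The fold change was positive for 11 of the 12 NK and cytotoxic markers, beside 50.99% of all genes tested. Without saline replicate 1 it was positive for 5 of the 12, with a median of -0.0068 against 0.17 with all arrays. Of 14 T cell markers, Il7r rose by 0.61 ± 0.16 (adjusted p = 0.0434), a call lost without NDEP replicate 1 (adjusted p = 0.0538), NDEP replicate 2 (adjusted p = 0.132), NDEP replicate 3 (adjusted p = 0.137) or saline replicate 1 (adjusted p = 0.241), while Cd3e gave 0.01 ± 0.11 (adjusted p = 0.978). Of 13 B and plasma cell markers, Fcer2a (0.88) and Sdc1 (0.49) rose, while the B cell surface gene Ms4a1 gave -0.06 ± 0.34 (adjusted p = 0.961).

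Genes of antigen presentation by class II molecules rose. Of 10 genes of MHC class II presentation, 7 rose and none fell, with a median of 0.56. H2-Ab1, a class II beta chain, measured 10.28, 10.36 and 10.16 log2 in NDEP lungs, against 9.58, 9.68 and 9.61 in saline lungs. The class II genes H2-Ea (0.66), H2-Eb1 (0.61), H2-Aa (0.52) and H2-DMa (0.61), the invariant chain Cd74 (0.66) and the lysosomal reductase Ifi30 (0.52) lay in a narrow range of fold change. The counts rested on single arrays, with 2 of the 10 genes higher without saline replicate 1, 3 without NDEP replicate 1, 3 without NDEP replicate 2 and 0 with the 3′ and 5′ differences as covariates. None of 11 genes of class I presentation and none of 28 interferon-stimulated genes passed the threshold. The interferon list had 25 members with a positive fold change, beside 50.99% of all genes tested, and a median of 0.18. With the mean levels of the heart and fat gene lists as covariates, 13 members were positive (median -0.0185). With the 3′ and 5′ differences as covariates, 20 were (median 0.099). Ifit1, the member with the smallest p in the main fit, gave 0.56 ± 0.18 (adjusted p = 0.103).

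Surfactant and ion transport genes of the epithelium rose in part. Of the mucin and goblet cell genes, 1 of 16 rose, beside 2.25% of all genes tested. Of 16 alveolar type 2 and surfactant genes, 7 rose and none fell, with a median of 0.65. Sftpd, the surfactant lectin, measured 12.64, 12.75 and 12.69 log2 in NDEP lungs, against 11.39, 11.80 and 12.02 in saline lungs, a fold change of 0.96 ± 0.14 (adjusted p = 3.38e-04). Sftpa1 rose by 0.68, the protease Napsa by 0.85 and the phosphate transporter Slc34a2 by 0.63. Il33, Chil1 and Cd74, counted above, are the other 3, and all are also made or induced in other cells. Sftpc and Sftpb, which encode the hydrophobic surfactant proteins, gave 0.11 ± 0.10 (adjusted p = 0.665) and 0.23 ± 0.14 (adjusted p = 0.481). The Sftpa1 call was lost without NDEP replicate 2 (adjusted p = 0.0907), NDEP replicate 3 (adjusted p = 0.0624) or saline replicate 1 (adjusted p = 0.164). The Napsa call was lost without NDEP replicate 1 (adjusted p = 0.0517), NDEP replicate 2 (adjusted p = 0.132), NDEP replicate 3 (adjusted p = 0.0562), saline replicate 1 (adjusted p = 0.192) or saline replicate 3 (adjusted p = 0.0593), and 4 of the 16 genes were higher without saline replicate 1. Of 21 genes of airway ion transport, 3 rose. Slc26a4, the anion exchanger pendrin, measured 8.27, 8.18 and 8.09 log2 in NDEP lungs, against 4.99, 6.27 and 6.01 in saline lungs. Its NDEP arrays lay close together and above every saline array, and the fold change was 2.42 ± 0.29 (adjusted p = 4.21e-05). The chloride channel Cftr rose by 0.79 ± 0.18 (adjusted p = 0.0173) and missed the threshold without NDEP replicate 3 (adjusted p = 0.0876), saline replicate 1 (adjusted p = 0.0659) or saline replicate 3 (adjusted p = 0.051). The sodium channel subunit Scnn1a gave -0.22 ± 0.14 (adjusted p = 0.498). Of 16 mucin and goblet cell genes, Muc1, a membrane mucin, rose by 0.77 ± 0.17 (adjusted p = 0.0107), which was lost without saline replicate 1 (adjusted p = 0.0956). The secreted mucins Muc5b and Muc5ac gave 0.68 ± 0.28 (adjusted p = 0.22) and 0.27 ± 0.18 (adjusted p = 0.494). Of 13 club and secretory cell markers only Cyp4b1 passed the threshold and fell, as given below, and none of 9 ciliated cell markers or 10 alveolar type 1 markers passed it. Ager, the type 1 cell receptor, gave 0.34 ± 0.17 (adjusted p = 0.343).

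Proteases, their inhibitors and matrix genes changed in few members. Of 25 metalloproteinases, ADAM proteases and TIMPs, 2 rose and 1 fell. Timp1, a metalloproteinase inhibitor, measured 9.01, 8.96 and 9.37 log2 in NDEP lungs, against 7.07, 7.41 and 7.23 in saline lungs, a fold change of 1.88 ± 0.35 (adjusted p = 0.0034). Mmp12, the macrophage elastase, measured 8.15, 8.24 and 7.38 log2 in NDEP lungs, against 6.43, 6.43 and 6.55 in saline lungs, with a fold change of 1.46 ± 0.28 (adjusted p = 0.0038). Mmp11 fell by 0.42 ± 0.12 (adjusted p = 0.0498), which was lost without NDEP replicate 1 (adjusted p = 0.179), NDEP replicate 2 (adjusted p = 0.13), saline replicate 1 (adjusted p = 0.197), saline replicate 2 (adjusted p = 0.0506) or saline replicate 3 (adjusted p = 0.0831). Of 20 serpins and serine protease inhibitors, Serpina3n and Slpi, the secretory leukocyte protease inhibitor, rose. Slpi measured 9.36, 9.69 and 9.34 log2 in NDEP lungs, against 8.04, 8.66 and 8.39 in saline lungs, a fold change of 1.10 ± 0.17 (adjusted p = 4.44e-04). Of 25 cathepsins, cystatins and lysosomal enzymes, Ctsk, Ctsz (0.72), Ctsc (0.63), Ctsh (0.46) and Ctsb (0.44) rose. Without NDEP replicate 3, 2 of these lysosomal genes were higher, and without NDEP replicate 1, 3 were. Of 24 collagen and fibrillar matrix genes, Tnc, the wound matrix protein tenascin C, rose by 0.66 ± 0.16 (adjusted p = 0.0253), a call lost without NDEP replicate 1 (adjusted p = 0.0763), NDEP replicate 3 (adjusted p = 0.136), saline replicate 2 (adjusted p = 0.0766) or saline replicate 3 (adjusted p = 0.0741). None of 10 small leucine-rich proteoglycans passed the threshold, and 0 of the 10 had a positive fold change, with a median of -0.26. Ogn gave -0.84 ± 0.23 (adjusted p = 0.0527), Lum -0.65 ± 0.21 (adjusted p = 0.0959) and Dcn -0.64 ± 0.20 (adjusted p = 0.0873). Without saline replicate 2, 3 of these proteoglycans were lower.

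Targets of the aryl hydrocarbon receptor did not move as a group. Of 9 measured members, 1 rose. Cyp1b1, a cytochrome P450 of family 1, measured 6.96, 7.36 and 7.98 log2 in NDEP lungs, against 6.52, 5.78 and 6.48 in saline lungs, a fold change of 1.17 ± 0.22 (adjusted p = 0.0033), and it kept its call with each of the 6 arrays left out. Cyp1a1 gave 0.18 ± 0.26 (adjusted p = 0.808), Cyp1a2 0.14 ± 0.10 (adjusted p = 0.552) and Ahr itself -0.24 ± 0.21 (adjusted p = 0.649). Of 24 NRF2 antioxidant genes, 3 rose and none fell. Hmox1, haem oxygenase 1, measured 8.13, 7.94 and 8.19 log2 in NDEP lungs, against 6.92, 7.58 and 7.30 in saline lungs, and its fold change of 0.82 ± 0.16 (adjusted p = 0.0055) was lost without saline replicate 1 (adjusted p = 0.0593). Txn1, thioredoxin, measured 11.57, 11.52 and 11.51 log2 in NDEP lungs, against 11.03, 10.95 and 11.07 in saline lungs, with a fold change of 0.52 ± 0.08 (adjusted p = 7.89e-04). Sod2, the mitochondrial superoxide dismutase and also an NF-kB target, rose by 0.87 ± 0.13 (adjusted p = 2.82e-04). Nqo1, a target of both pathways, gave -0.04 ± 0.14 (adjusted p = 0.93), and Gclc, a subunit of the enzyme that starts glutathione synthesis, gave 0.54 ± 0.16 (adjusted p = 0.0686). None of 20 glutathione S-transferases passed the threshold. Of 17 cytochrome P450 genes outside family 1, Cyp7b1, an oxysterol hydroxylase, rose by 0.62 ± 0.17 (adjusted p = 0.0442), a call lost without NDEP replicate 1 (adjusted p = 0.112), NDEP replicate 3 (adjusted p = 0.169), saline replicate 1 (adjusted p = 0.162) or saline replicate 3 (adjusted p = 0.124). Cyp2e1 and Cyp4b1 fell. Cyp4b1, a P450 of club cells, measured 11.56, 11.57 and 11.59 log2 in NDEP lungs, against 12.09, 12.02 and 11.97 in saline lungs, a fold change of -0.45 ± 0.09 (adjusted p = 0.0038). Its range between arrays was small and it kept its call with each array left out. The club cell P450 Cyp2f2 gave -0.25 ± 0.11 (adjusted p = 0.236).

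Genes of pantetheine, metal and arginine metabolism rose in part, and 1 of 16 cholesterol genes rose, beside 2.25% of all genes tested. Of 4 measured vanin and pantetheine genes, 2 rose. Vnn1, a membrane enzyme that splits pantetheine, measured 7.28, 7.74 and 7.86 log2 in NDEP lungs, against 5.36, 5.60 and 5.75 in saline lungs. Every NDEP array lay more than 1 log2 unit above every saline array, a fold change of 2.06 ± 0.18 (adjusted p = 3.88e-07), and its relative Vnn3 rose by 0.81 ± 0.13 (adjusted p = 7.27e-04). Of 19 iron, copper and zinc handling genes, 7 rose and none fell, with a median of 0.67. 4 of these were named above (Lcn2, Hpx, Tfrc and Hmox1). The others were Steap4, a metalloreductase (1.34 ± 0.22 (adjusted p = 0.001)), the zinc importer Slc39a4 (1.15 ± 0.16 (adjusted p = 1.56e-04)) and the phagosomal metal exporter Slc11a1 (0.67). The metallothioneins Mt1 (0.72) and Mt2 (0.89) did not pass the threshold, and the iron exporter Slc40a1 gave 0.11 ± 0.12 (adjusted p = 0.728). Of 14 genes of arginine, nitric oxide, tryptophan and itaconate metabolism, 2 rose. Arg2, the mitochondrial arginase, measured 6.79, 7.32 and 7.05 log2 in NDEP lungs, against 5.48, 5.94 and 5.71 in saline lungs, a fold change of 1.34 ± 0.18 (adjusted p = 1.13e-04). Gch1, which makes the cofactor of nitric oxide synthases, rose by 0.76 ± 0.13. Of 16 cholesterol genes, Ch25h, which makes 25-hydroxycholesterol, measured 7.81, 8.16 and 8.06 log2 in NDEP lungs, against 6.23, 6.53 and 6.75 in saline lungs, a fold change of 1.51 ± 0.22 (adjusted p = 2.51e-04). Hal, which degrades histidine, rose by 1.35 ± 0.27 (adjusted p = 0.0054).

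Genes of protein folding in the secretory pathway rose in part. Of 21 genes of the unfolded protein response, 5 rose and none fell, with a median of 0.32: Manf (0.72), Pdia6 (0.63), Hsp90b1 (0.59), Pdia3 (0.56) and the chaperone Hspa5 (0.46). Without saline replicate 1 or NDEP replicate 3, 1 of them passed the threshold, without NDEP replicate 2, 2 did, and with the 3′ and 5′ differences as covariates, 0 did. None of 14 cytosolic heat shock genes passed the threshold. The heat shock genes Hspa1a and Hspa1b gave -1.07 ± 0.43 (adjusted p = 0.201) and -0.87 ± 0.35 (adjusted p = 0.208). Of 29 cell cycle and replication genes, the replication genes Mcm5 (0.64), Mcm2 (0.61) and Rrm1 (0.46) rose. All 3 missed the threshold without saline replicate 1, and also without saline replicate 3 or NDEP replicate 3. None of 25 oxidative phosphorylation genes, 18 apoptosis and p53 targets or 23 prostaglandin and leukotriene genes passed it, and Ptgs2, the inducible cyclooxygenase, gave 0.84 ± 0.30 (adjusted p = 0.146).

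Genes of the circadian clock differed in both directions. The core clock consists of the activators Clock and Arntl (Bmal1), their targets in the Per, Cry and Nr1d families, and output factors such as Dbp. Of 17 clock genes, 3 rose and 2 fell. Arntl measured 6.16, 5.67 and 5.99 log2 in NDEP lungs, against 6.62, 6.94 and 6.56 in saline lungs. It was lower on each NDEP array, and fell by 0.76 ± 0.14 (adjusted p = 0.003). Clock measured 7.28, 7.30 and 7.36 log2 in NDEP lungs, against 7.88, 7.83 and 7.72 in saline lungs, a fold change of -0.50 ± 0.10 (adjusted p = 0.0045). Bhlhe40, a repressor of Clock and Arntl activity that is also induced by stress and cytokines, measured 8.71, 8.75 and 8.81 log2 in NDEP lungs, against 7.94, 7.77 and 7.77 in saline lungs, a fold change of 0.93 ± 0.11 (adjusted p = 4.21e-05). These 3 genes kept their calls with each of the 6 arrays left out. Nr1d1, the repressor REV-ERB alpha, measured 8.52, 8.61 and 8.14 log2 in NDEP lungs, against 6.94, 7.69 and 7.59 in saline lungs. It rose by 1.01 ± 0.21 (adjusted p = 0.0079) and missed the threshold without saline replicate 1 (adjusted p = 0.0788). Dbp measured 8.09, 8.70 and 8.37 log2 in NDEP lungs, against 7.24, 6.32 and 6.96 in saline lungs, with a fold change of 1.55 ± 0.39 (adjusted p = 0.03) that was lost without NDEP replicate 2 (adjusted p = 0.126), NDEP replicate 3 (adjusted p = 0.0887), saline replicate 2 (adjusted p = 0.108) or saline replicate 3 (adjusted p = 0.0617). The clock time of tissue collection per mouse is not given in the sources used here. Per1 spread widely among the NDEP arrays and measured 7.32, 8.78 and 7.45 log2 in NDEP lungs, against 8.27, 8.47 and 8.19 in saline lungs, and Per2 gave 0.09 ± 0.26 (adjusted p = 0.914). The highest Per1 value of the NDEP arrays lay above every saline array and the other 2 below every saline array.

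**Figure D3:**
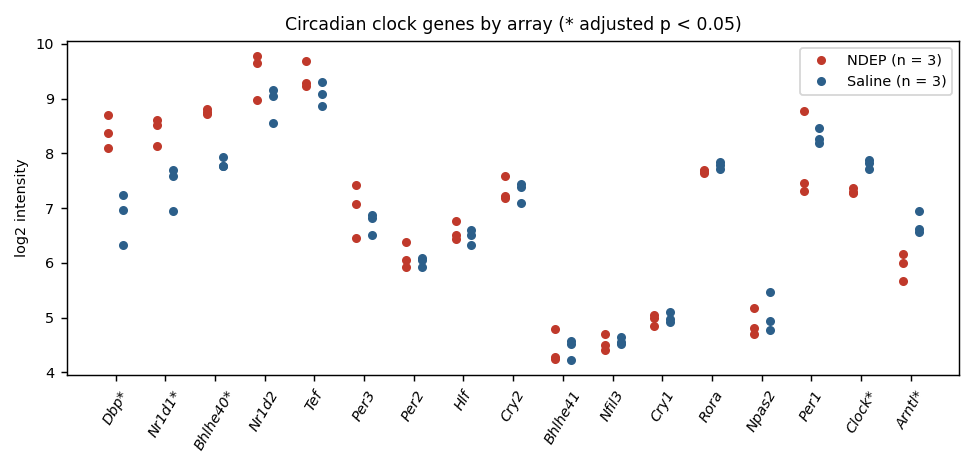
Log2 intensity (y axis) of the 17 measured circadian clock genes (x axis, ordered by fold change), with 1 point per array (NDEP red at left, saline blue at right of each gene, n = 3 each) and asterisks for adjusted p below 0.05. Dbp, Nr1d1 and Bhlhe40 stand higher in NDEP lungs and Clock and Arntl lower, while the Per1 points of NDEP lungs spread from 7.32 to 8.78.

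The 56 genes that fell included markers of connective tissue, vessels, heart and fat. Of 21 fibroblast markers, 3 fell and none rose, with a median of -0.39, and the summed intensity was 20551 to 22602 in NDEP lungs and 23003 to 30473 in saline lungs. Scara5, a ferritin receptor of stromal cells, measured 6.09, 6.35 and 6.45 log2 in NDEP lungs, against 7.69, 6.77 and 7.20 in saline lungs, and its fold change of -0.92 ± 0.20 (adjusted p = 0.0122) was lost without NDEP replicate 1 (adjusted p = 0.0568) or saline replicate 1 (adjusted p = 0.109). Abca8a, a lipid transporter, gave -0.78 and Pi16, a marker of adventitial fibroblasts, -0.50, both past the threshold. Without saline replicate 1, 0 fibroblast markers were lower, and without saline replicate 2, 6 were. Of 17 smooth muscle and pericyte markers, 2 fell. Rgs5, a pericyte gene, measured 5.69, 5.73 and 5.52 log2 in NDEP lungs, against 6.68, 6.19 and 6.45 in saline lungs, and its fold change of -0.80 ± 0.14 (adjusted p = 0.0016) kept its call with each array left out. Mylk, the myosin kinase of smooth muscle, fell by 0.35 ± 0.09 (adjusted p = 0.0325), a call lost without NDEP replicate 1 (adjusted p = 0.132), NDEP replicate 2 (adjusted p = 0.0539), NDEP replicate 3 (adjusted p = 0.0624) or saline replicate 1 (adjusted p = 0.207). Of 22 endothelial markers, 1 fell, with a median of -0.26 and a summed intensity of 22466 to 23584 in NDEP lungs and 26821 to 30902 in saline lungs. It was Ptprb, a phosphatase of vessel walls (-0.50 ± 0.13 (adjusted p = 0.0442)), and its call was lost without NDEP replicate 1 (adjusted p = 0.145), NDEP replicate 2 (adjusted p = 0.0676), NDEP replicate 3 (adjusted p = 0.0964), saline replicate 1 (adjusted p = 0.177) or saline replicate 3 (adjusted p = 0.0831). Cdh5, the junction protein of endothelium, gave -0.24 ± 0.12 (adjusted p = 0.366). Leukocyte genes were higher on the same NDEP arrays, and the share of each cell type was not tested.

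Nppa had the lowest fold change of all called genes. This hormone of heart atria measured 7.52, 8.21 and 9.0 log2 in NDEP lungs, against 9.77, 9.02 and 10.94 in saline lungs. The lowest saline array lay just above the highest NDEP array, the fold change was -1.66 ± 0.43 (adjusted p = 0.0322), and the call was lost without NDEP replicate 1 (adjusted p = 0.148), NDEP replicate 2 (adjusted p = 0.0907), saline replicate 1 (adjusted p = 0.084) or saline replicate 3 (adjusted p = 0.186). Of 26 heart muscle genes, Nppa was the 1 that fell, and the list had a median of -0.35, which ran from -0.50 to -0.10 when single arrays were left out. The summed intensity of the list was 7112 to 10902 in NDEP lungs and 9439 to 16665 in saline lungs. Sln and Mb, genes of heart and other striated muscle, gave -0.84 ± 0.25 (adjusted p = 0.0757) and -0.62 ± 0.22 (adjusted p = 0.156). Of 16 fat cell genes, 4 fell and none rose, with a median of -0.29: Cyp2e1, Plin4 (-0.44), Cidec and Pck1, which was dim in both groups. The count was 0 without NDEP replicate 3 or saline replicate 3, and 2 without any other of the 6 arrays. Plin4 missed the threshold without any array but NDEP replicate 1, and Pck1 without NDEP replicate 2, NDEP replicate 3, saline replicate 2 or saline replicate 3. Cyp2e1, a P450 of fat and liver, measured 5.76, 6.28 and 6.08 log2 in NDEP lungs, against 7.15, 6.96 and 7.74 in saline lungs. Its fold change of -1.25 ± 0.29 (adjusted p = 0.0149) was lost without NDEP replicate 1 (adjusted p = 0.0663), NDEP replicate 3 (adjusted p = 0.0522) or saline replicate 3 (adjusted p = 0.0905). The fat hormone Adipoq measured 4.46, 4.95 and 5.08 log2 in NDEP lungs, against 6.43, 5.97 and 7.29 in saline lungs, with a difference of -1.73 ± 0.54 (adjusted p = 0.0874). Summed over the fat list, intensity was 6005 to 7329 in NDEP lungs and 5345 to 6513 in saline lungs, opposite in direction to the median, and the brightest gene of this sum was Scd1, a fatty acid desaturase that alveolar type 2 cells also make (0.66 ± 0.20 (adjusted p = 0.0779)). With the mean levels of the heart and fat lists as covariates, 143 genes were higher and 31 lower. The part of heart and fat tissue in the other results was not tested beyond this fit.

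Of the 56 genes that fell, only Nppa, Cyp2e1 and Acaa1b were lower by 2-fold or more. Acaa1b, a peroxisomal enzyme of fatty acid oxidation, measured 5.13, 5.28 and 5.02 log2 in NDEP lungs, against 6.80, 5.84 and 6.18 in saline lungs, and its fold change of -1.13 ± 0.24 (adjusted p = 0.0093) was lost without NDEP replicate 3 (adjusted p = 0.0513) or saline replicate 1 (adjusted p = 0.0868). Otub2, a deubiquitinase, measured 6.21, 6.61 and 6.46 log2 in NDEP lungs, against 6.97, 7.05 and 7.09 in saline lungs, a fold change of -0.61 ± 0.10 (adjusted p = 0.0013), and kept its call with each array left out. The cyclic GMP-dependent kinase Prkg2 (-0.78) and the neuropeptide Grp, gastrin-releasing peptide (-0.75), were the other members of 26 natriuretic, neuropeptide and vasoactive genes that fell besides Nppa. This count was 0 without NDEP replicate 1 or saline replicate 1, and 5 without saline replicate 2. The imprinted gene Peg3 fell by 0.77, the glutamate receptor subunit Gria1 by 0.68, and the transcription factors Klf7 and Zeb1 by 0.55 and 0.51. Each of these 4 missed the threshold without saline replicate 1 (adjusted p of 0.0653 to 0.143) and without NDEP replicate 3 (adjusted p of 0.0755 to 0.0964). None of 30 growth factors and EGF family ligands and none of 34 TGF-beta, BMP and Wnt genes passed it. The endothelial growth factor Vegfd gave -0.63 ± 0.19 (adjusted p = 0.0695), and Wnt2, a fibroblast Wnt, gave -0.62 ± 0.19 (adjusted p = 0.0903).

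In the remaining lists few genes passed the threshold. Of 17 scavenger and phagocytic receptors, Lgals3, the lectin galectin-3, rose by 0.76 and Scara5 fell. Of 19 leukocyte adhesion genes, the integrin Itgam rose by 0.88 and the endothelial ligand Icam1 by 0.46, and neither did without saline replicate 1 or NDEP replicate 3. Of 25 coagulation genes F10, coagulation factor X, rose by 0.68. Of 25 lipid genes, Fabp5 rose and Acaa1b and Plin4 fell, and of 17 ABC transporters Abca8a fell. 1 gene rose among 23 hypoxia and glycolysis genes (Tpi1, 0.33), 24 immediate early and CEBP factors (Cebpa, 0.51), 15 glucocorticoid-responsive genes (Lcn2), 13 red cell and platelet genes (Tfrc) and 8 nerve and Schwann cell genes (Mbp, 0.37). Over all genes tested, 2.25% were higher. With 1 array left out, Tpi1 kept its call only without saline replicate 3 (adjusted p = 0.0369). Cebpa lost its call without NDEP replicate 2, saline replicate 1 or saline replicate 3. Mbp lost its call without NDEP replicate 2, NDEP replicate 3, saline replicate 1 or saline replicate 2. None of 8 mesothelial markers passed the threshold, and their defining marker Wt1 was dim in both groups.

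**Figure D4:**
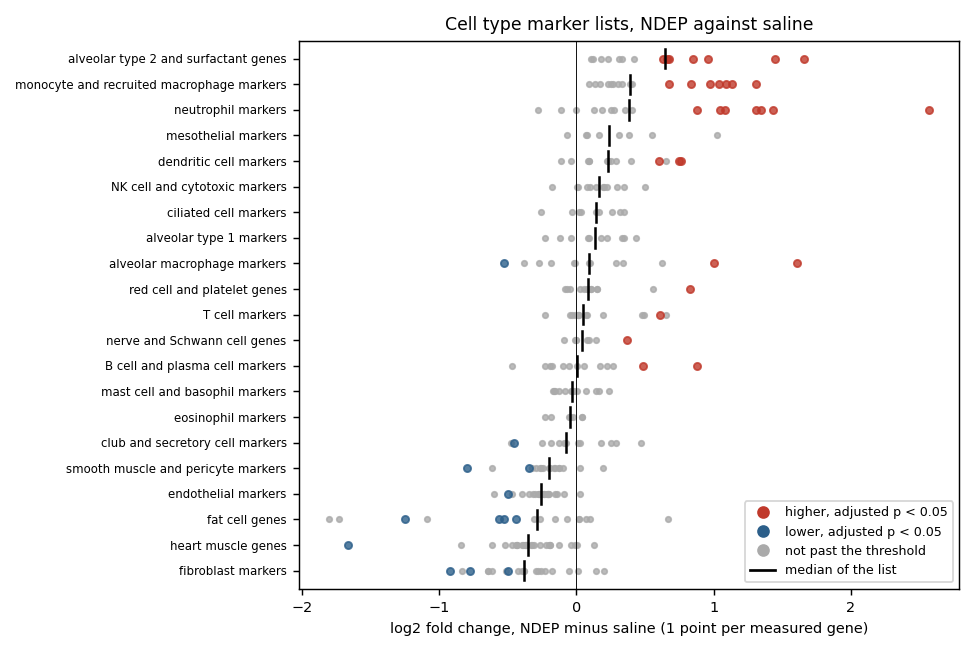
Log2 fold change of NDEP against saline (x axis) for each measured gene of the cell type marker lists, 1 point per gene and 1 row per list, with genes past the adjusted p of 0.05 in red (higher) or blue (lower), other genes in grey and the list median as a black bar, and rows ordered by median. Alveolar type 2, monocyte and neutrophil rows have the highest medians (0.65, 0.39 and 0.38) and the fibroblast row the lowest (-0.39).

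The same particles given with OVA provided 6 further arrays, whose levels did not enter the fold changes of NDEP against saline but whose spread entered the shared estimate. Between NDEP/OVA and Saline/OVA lungs, 257 genes passed the threshold (2.07% of the genes tested), 216 of them higher (1.74%) and 41 lower (0.331%). Of the 279 genes higher with NDEP alone, 266 had a positive fold change there and 105 (37.6%) were called higher. Of the 56 genes lower with NDEP alone, 46 had a negative fold change there and 1 (1.79%), Scara5, was called lower. Among genes not called with NDEP alone, 59.5% had the same sign in both comparisons. The median log2 fold change with OVA was 0.45 for the 279 genes and -0.12 for the 56 genes, against 0.0157 for all genes, and 0 of the 335 genes were called in the opposite direction. The count of 106 genes called in both settings was 41 without Saline/OVA replicate 2 and 40 without NDEP/OVA replicate 3.

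Between the OVA-treated arms, 11 of 23 acute phase genes, 9 of 17 CC chemokines and 2 of 7 neutrophil-attracting CXC chemokines and receptor were higher, and none was lower. Orm1 measured 7.97, 6.06 and 7.58 log2 in NDEP/OVA lungs, against 4.43, 4.18 and 4.30 in Saline/OVA lungs, a fold change of 2.90 ± 0.38 (adjusted p = 8.28e-05) against a group in which it was dim. The neutrophil attractants Cxcl5 and Cxcl1 gave 2.53 ± 0.33 (adjusted p = 7.30e-05) and 1.89 ± 0.34 (adjusted p = 0.002), and Ccl3 gave 0.89 ± 0.23 (adjusted p = 0.0461). Slc26a4 measured 9.96, 9.67 and 9.80 log2 in NDEP/OVA lungs, against 6.37, 5.16 and 5.97 in Saline/OVA lungs, a fold change of 3.97 ± 0.29 (adjusted p = 1.08e-08). Its fold change with NDEP alone was 2.42 ± 0.29, and the difference between the 2 was 1.55 ± 0.41 (adjusted p = 0.332). Cd177 measured 9.86, 8.64 and 9.57 log2 in NDEP/OVA lungs, against 6.82, 4.41 and 6.19 in Saline/OVA lungs, with a fold change of 3.55 ± 0.41 (adjusted p = 1.92e-05). Ctsk, the macrophage cathepsin, gave 1.68 ± 0.23 (adjusted p = 9.90e-05), and Mmp12 gave 1.97 ± 0.28 (adjusted p = 1.62e-04). Of the 17 clock genes, 1 passed the threshold there, Bhlhe40 with 0.46 ± 0.11 (adjusted p = 0.0274). Nr1d1, Arntl, S100a8 and Csf2 did not pass it. Nr1d1 gave -0.12 ± 0.21 (adjusted p = 0.917), Arntl -0.44 ± 0.14 (adjusted p = 0.124), S100a8 0.08 ± 0.28 (adjusted p = 0.969) and Csf2 0.27 ± 0.13 (adjusted p = 0.436). The differences between the 2 fold changes were -1.13 ± 0.30 (adjusted p = 0.325) for Nr1d1, -1.36 ± 0.39 (adjusted p = 0.44) for S100a8 and -1.0 ± 0.19 (adjusted p = 0.0608) for Csf2, so none passed the threshold. Nppa gave -0.17 ± 0.43 (adjusted p = 0.953) and Cyp2e1 0.00 ± 0.29 (adjusted p = 0.998), also without a difference past the threshold. Of the 26 heart muscle genes, however, 5 were lower between the OVA-treated arms (Fabp3, Myl7, Myl4, Cox6a2 and Tnni3), with a list median of -0.55, against 1 lower gene and a median of -0.35 with NDEP alone. Fabp3, a fatty acid carrier of muscle, gave -0.99 ± 0.16 (adjusted p = 0.001). None of the 16 fat cell genes passed the threshold there. The part of heart tissue in the results with OVA was not tested.

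**Figure D5:**
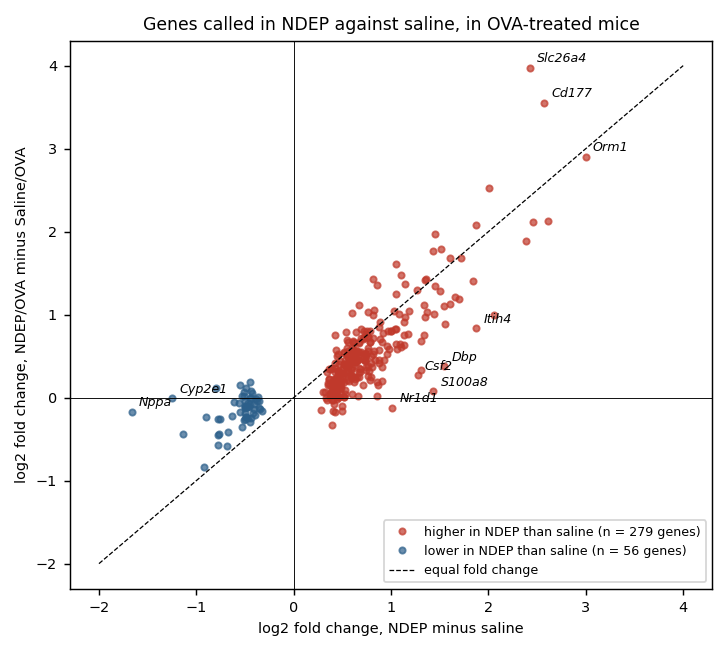
Log2 fold change of NDEP against saline (x axis) and of NDEP/OVA against Saline/OVA (y axis) for the 335 genes called with NDEP alone (279 higher in red, 56 lower in blue), with a dashed line where both fold changes are equal. Most red points lie above 0 on the y axis, and Slc26a4 and Cd177 lie above the dashed line, while blue points gather around 0.

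A test of the difference between the NDEP effects with and without OVA passed for 3 of 12393 genes (0.0242%), while 764 genes (6.16%) had an unadjusted p below 0.05. All 3 were dim in NDEP and in saline lungs. Chil4, a chitinase-like protein of alternative macrophages and airway epithelium, measured 4.35, 4.40 and 4.18 log2 in NDEP lungs, against 4.31, 4.44 and 4.46 in saline lungs. With OVA it measured 7.49, 6.72 and 7.22 log2 in NDEP/OVA lungs, against 4.40, 4.42 and 4.63 in Saline/OVA lungs. The difference between the effects was 2.75 ± 0.38 (adjusted p = 0.0018). Rnase2a, a ribonuclease of the eosinophil family in mice, differed by 2.05 ± 0.37 (adjusted p = 0.0386), and Cd209e, a C-type lectin, by 1.02 ± 0.16 (adjusted p = 0.0085). Of the type 2 cytokine and alternative macrophage genes, 1 of 21 rose with NDEP alone (Ccl17), while 7 of the 21 were higher with NDEP/OVA than with Saline/OVA. Of the 16 mucin and goblet cell genes, 8 were higher there, against 1 with NDEP alone. These counts were not tested against each other.

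Few single genes separated NDEP from the other diesel samples given without OVA. NDEP and ADEP differed in 1 of 12393 genes (0.00807%), with 565 genes (4.56%) at an unadjusted p below 0.05. This gene was Vnn1, which measured 7.28, 7.74 and 7.86 log2 in NDEP lungs, against 6.21, 6.40 and 6.87 in ADEP lungs. The difference was 1.14 ± 0.18 (adjusted p = 0.0199), and the count was 0 without NDEP replicate 2, NDEP replicate 3, ADEP replicate 1 or ADEP replicate 2. NDEP and CDEP differed in 0 genes by limma at the adjusted threshold, with 734 genes (5.92%) at an unadjusted p below 0.05. The 3 smallest p belonged to the iron exporter Slc40a1, to 2410004B18Rik and to Ikbip. Slc40a1 measured 6.99, 6.71 and 6.62 log2 in NDEP lungs, against 6.02, 6.11 and 6.25 in CDEP lungs, a difference of 0.64 ± 0.12 (adjusted p = 0.252). Orm1, the gene with the highest fold change against saline, differed from ADEP by -0.03 ± 0.38 and from CDEP by 0.13 ± 0.38, so an SE of that size limits what this comparison can show for the gene.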

How the data were processed

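Total RNA (2 ug per lung) of 24 mice was labelled and hybridised to 1-colour Affymetrix arrays, as the labels' protocols state. Each probe set has 1 deposited intensity per array on a linear scale (5.98 to 18195.5), normalized with RMA per the submitters' processing notes. The sources used here give neither the RMA version nor its settings. This method compresses differences of dim probe sets, and spot background was not analysed here. Samples were grouped by title. Log2 of the intensity was taken. Of 22690 probe sets, 64 were controls, 691 carried several gene symbols and 1555 none, and these were not used for genes. Of the probe sets of 1 gene, the one with the highest mean log2 over all 24 arrays was kept (4956 genes had several), which left 12393 genes. Among called genes with several probe sets, all had the same sign for 85 of 110 higher and 24 of 32 lower genes.

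limma 3.58.1 in R 4.3.3 fitted 8 group means to all 24 arrays (16 residual and 8.16 prior degrees of freedom), with two-sided moderated tests and Benjamini-Hochberg adjustment over all genes at 0.05. Errors of fold changes are SE. Python 3.11.15 with pandas 2.3.3, scipy 1.17.1 and matplotlib 3.10.9 did the rest, and the fit was tested on simulated data. The 73 lists (52 of functions, 21 of cell types) held 1304 genes, of which 1143 were measured, and are described by counts and medians without a test. The members, lists and tests were chosen with earlier results of these data known. Genes named are the 30 highest and 30 lowest fold changes past the threshold without overlap of arrays, the list members past the threshold and the 4 others with the smallest p, the defining cell markers, and Cyp1a1, Cyp1b1, Nqo1, Hmox1, Il6, Il1b, Tnf, Cxcl2, Muc5ac and Il13. Il13 gave -0.08 ± 0.10 (adjusted p = 0.794). No 2 of the 6 arrays were copies: their pairwise correlation was 0.983 to 0.995, with at most 0.0176% identical values. The titles call the replicates biological and the design gives 3 mice per group. Deviations from the group means correlated at -0.299, -0.21 and 0.092 between same-numbered NDEP and saline arrays, and at -0.214 to 0.346 between arrays of other numbers. With 3 arrays per group these values cannot decide whether the numbers pair the mice, and the main fit did not pair them. Arrays have no read depth, and their number limits the precision. Alternatives were all probe sets, a filter on dim probe sets that kept 10387 genes, quantile normalization, only the compared groups in the fit, a robust variance with a trend, weights for arrays, a replicate block, covariates for RNA quality or for heart and fat genes, and each array left out.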

Additional observations from a re-analysis of the deposited data

Results flagged for a closer look

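The effect of NDEP differed between mice with and without OVA, by the test of that difference, for 3 genes: Chil4 (2.75 on the log2 scale), Rnase2a (2.05) and Cd209e (1.02). The effects were 2.66 with OVA and -0.09 without it for Chil4, 1.91 and -0.14 for Rnase2a, and 1.15 and 0.13 for Cd209e, and all 3 genes were dim in NDEP and saline lungs.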

How the results depend on the processing

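With 1 probe set per gene, the called genes kept the sign of their fold change under each alternative (335 genes, or 329 after the filter on dim probe sets). For 279 higher and 53 lower genes the NDEP and saline arrays did not overlap, so leaving out 1 array could not change their sign. The genes were also called on these same arrays, so kept signs are no independent support. Where called genes had several probe sets, all had the same sign for 85 of 110 higher and 24 of 32 lower genes. The count of higher genes (279) was 533 with array weights, 169 with only the compared groups in the fit, 114 with RNA quality covariates and 143 with heart and fat covariates. It ran from 129 to 316 with single arrays left out. The count of lower genes (56) was 86 after quantile normalization (with 232 higher), 185 with array weights, 12 with only the compared groups, 12 with RNA quality covariates and 31 with heart and fat covariates, and ran from 23 to 91 with single arrays left out. The cause of these moves was not tested. With the replicate number as a block, 285 genes were higher and 67 lower, 7 genes passed the NDEP by OVA test and 111 genes were called with and without OVA. The 3 genes of the NDEP by OVA test became 5 with all probe sets, 13 with array weights, 6 with only the compared groups and 1 with RNA quality covariates, and 2 to 6 with single arrays left out. The difference between NDEP and ADEP, 1 gene, became 0 genes with only the compared groups or RNA quality covariates, and 0 to 1 with single arrays left out. For NDEP against CDEP, 1 gene passed with only the compared groups. Of the genes called with NDEP alone, the number also called in the OVA arms (106) was 177 with array weights, 40 with only the compared groups and 61 with RNA quality covariates, and 40 to 130 with single arrays left out. Levels near background limit what is known of the dim genes.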

Other observations

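Of the 279 genes higher in NDEP than saline lungs, 127 were in at least 1 list, and of the 56 lower genes, 19 were. The genes below are in no list and, apart from Hal and Lrg1 above, were chosen after their values were seen. Genes used widely by leukocytes were among them. Coro1a, an actin-binding protein of leukocytes, measured 8.96, 8.96 and 9.01 log2 in NDEP lungs, against 7.84, 8.17 and 8.30 in saline lungs, a fold change of 0.87 ± 0.19 (adjusted p = 0.0093). The adaptor Lcp2 rose by 0.92 ± 0.18 (adjusted p = 0.0046), the surface proteins Cd52 and Cd48 by 0.90 and 0.79, and Tyrobp, a signalling partner of myeloid receptors, by 0.76 ± 0.17 (adjusted p = 0.0116). With 1 array left out, Cd52 kept its call only without saline replicate 3 (adjusted p = 0.0415). Cd48 lost its call without NDEP replicate 3 or saline replicate 1, Coro1a without saline replicate 1 and Tyrobp without saline replicate 3. Ms4a6d, a membrane protein of macrophages, rose by 1.05 and Hcar2, a receptor for hydroxybutyrate, by 1.06.

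Some solute carriers and junction genes differed. The lactate transporter Slc16a1 measured 7.05, 7.24 and 7.42 log2 in NDEP lungs, against 5.89, 6.81 and 6.28 in saline lungs, a fold change of 0.91 ± 0.18 (adjusted p = 0.0053). The amino acid transporter Slc6a14 rose by 0.60, the sodium and glucose carrier Slc5a1 by 0.74 and the lysosomal peptide carrier Slc15a3 by 0.88, while Slc6a20a, dim in saline lungs, was at least 1.06-fold higher (adjusted p = 0.003). Slc12a5, a potassium and chloride cotransporter, fell by 0.49 ± 0.13 (adjusted p = 0.0491). Its call was lost without NDEP replicate 2, NDEP replicate 3, saline replicate 1 or saline replicate 2. The Slc6a14 call was lost without NDEP replicate 2, NDEP replicate 3 or saline replicate 1, and the Slc16a1 call without saline replicate 1. Cxadr, a junction protein that is also a virus receptor, rose by 0.71 ± 0.16 (adjusted p = 0.0128), and the tight junction gene Tjp3 by 0.59. Tjp3 missed the threshold without any 1 of the 6 arrays (adjusted p of 0.0502 to 0.19), and Cxadr without NDEP replicate 3 or saline replicate 1. Hsd11b2, which inactivates glucocorticoid hormones, rose by 0.59 ± 0.12 (adjusted p = 0.0048).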
